A study of Mus musculus with 32 samples.

Results

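10 genes linked to neutrophils are described here: the cytosolic calcium-binding proteins S100a8 and S100a9, the early granule genes Mpo and Elane, the late granule genes Ltf, Camp, Ngp, Mmp8 and Pglyrp1, and the chemokine receptor Cxcr2. They were taken by name, through probe sets that the platform annotation gives 1 gene symbol, as 10 of 17097 genes on the chip used for bead-enriched cells and 10 of 22180 genes on the chip used for sorted cells. Each had 1 such probe set on each chip. The arrays profiled tumour-associated macrophages of mouse tumours, 32 arrays in 12 groups and 3 experiments. In the first, cells enriched on magnetic beads for CD11b, an integrin of myeloid cells, came from spontaneous peritoneal neuroblastomas of Th-MYCN transgenic mice (3 arrays) or from tumours grown in WT mice from transplanted EG7 cells, a thymoma line (3 arrays). In the second, the same enrichment was applied to EG7 tumours of Myd88-/- hosts (5 arrays) and of WT hosts (5 arrays). Myd88 is the adaptor of most Toll-like receptors and of the interleukin-1 receptor family. In the last, flow cytometry separated population A (CD11b+, Ly6G-, Ly6C+, MHCII-) and population C (CD11b+, Ly6C-, MHCII+) from EG7 tumours. Their hosts were TNFR1-/- mice with Myd88flox/flox and Tie2-Cre (double KO), mice with Myd88flox/flox and Tie2-Cre alone (Myd88 cKO), TNFR1-/- mice, and WT mice, with 2 arrays for each population and genotype. Tie2-Cre acts in endothelial and blood-forming cells, so that deletion in these hosts was not limited to macrophages.

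Neutrophils fill their granules in sequence while they mature in the bone marrow. Myeloperoxidase (Mpo) and neutrophil elastase (Elane) are made at the promyelocyte stage for the primary granules, whereas lactoferrin (Ltf), cathelicidin (Camp), neutrophilic granule protein (Ngp), collagenase 2 (Mmp8) and peptidoglycan recognition protein 1 (Pglyrp1) follow at the myelocyte and later stages, and granule transcripts fade in the mature cell. S100a8 and S100a9 form the heterodimer calprotectin, which is abundant in neutrophils and present in monocytes, and Cxcr2 is the receptor by which mature neutrophils follow CXC chemokines. Members of the C/EBP family of transcription factors, Cebpe among them, drive late granule genes.

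Ngp, Camp and Ltf varied together across the bead-enriched arrays, and S100a8 and S100a9 form 1 protein complex. In knockout hosts Pglyrp1 of population A differed from WT in the opposite direction to Ngp, Camp and Ltf, though not by the test. The promoters of these 6 genes are therefore shown. Each stretch is the 200 bases before the transcription start, 5′ to 3′ on the gene's strand, from RefSeq in assembly GRCm38.p6. Capitals mark TTNNGNAA, a form of the C/EBP recognition motif, or the TATA box TATAAA, each searched on both strands.
Ngp, chr9:110419608-110419807, plus strand: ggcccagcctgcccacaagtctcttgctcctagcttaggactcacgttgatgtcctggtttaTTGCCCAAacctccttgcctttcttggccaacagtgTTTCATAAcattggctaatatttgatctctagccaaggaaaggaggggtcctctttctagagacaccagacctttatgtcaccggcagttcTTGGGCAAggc
Camp, chr9:109849457-109849656, minus strand: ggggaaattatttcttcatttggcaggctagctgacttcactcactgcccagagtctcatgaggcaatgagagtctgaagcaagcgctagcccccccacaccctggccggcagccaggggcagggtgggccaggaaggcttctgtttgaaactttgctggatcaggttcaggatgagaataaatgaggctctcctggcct
Ltf, chr9:111019092-111019291, plus strand: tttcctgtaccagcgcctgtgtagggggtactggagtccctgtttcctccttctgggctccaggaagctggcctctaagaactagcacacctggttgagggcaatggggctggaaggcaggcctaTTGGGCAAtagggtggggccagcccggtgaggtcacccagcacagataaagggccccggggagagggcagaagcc
Pglyrp1, chr7:18884490-18884689, plus strand: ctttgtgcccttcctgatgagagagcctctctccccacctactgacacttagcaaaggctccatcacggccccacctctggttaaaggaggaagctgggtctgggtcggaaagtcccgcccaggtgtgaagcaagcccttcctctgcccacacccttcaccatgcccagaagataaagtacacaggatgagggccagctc
S100a8, chr3:90668871-90669070, plus strand: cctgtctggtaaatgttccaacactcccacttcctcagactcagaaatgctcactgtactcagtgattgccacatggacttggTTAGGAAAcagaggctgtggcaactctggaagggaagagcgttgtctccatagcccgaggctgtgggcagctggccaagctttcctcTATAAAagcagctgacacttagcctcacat
S100a9, chr3:90695722-90695921, minus strand: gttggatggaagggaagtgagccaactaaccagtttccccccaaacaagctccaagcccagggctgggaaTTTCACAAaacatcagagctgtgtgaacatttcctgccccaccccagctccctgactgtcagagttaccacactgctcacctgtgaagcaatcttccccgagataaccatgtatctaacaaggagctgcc
The C/EBP letters occur in this window in 5 of the 10 genes (Ngp, Ltf, Mmp8, S100a8 and S100a9), with 3 matches in Ngp, none of which overlap, and in 30.0% of 32851 promoters of the same length. The TATA letters occur in S100a8 alone of the 10 genes, starting 30 bases before its start, and in 9.96% of promoters. A match of letters is no evidence of binding, and none of these arrays measured binding. Ngp, Camp and Ltf lie within 10 Mb of Myd88 on chromosome 9 in this assembly, and Mmp8 lies on the same chromosome 111.8 Mb from Myd88. The others lie on chromosomes 1 (Cxcr2), 3 (S100a8 and S100a9), 7 (Pglyrp1), 10 (Elane) and 11 (Mpo).

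All values below are log2 signals, and a value is read against the 40th percentile of the array's own probe sets, which lay at 3.44 to 3.48 in the first experiment, at 2.63 to 2.73 in the second and at 4.92 to 5.14 in sorted cells. Values after ± are standard errors of a log2 difference, and a gene was called at a limma adjusted p under 0.05 over all genes tested. Correlations between arrays of 1 group ran from 0.969 to 0.99 in the tumour models and from 0.991 to 0.996 in the Myd88 experiment. Sorted groups gave 0.931 to 0.987, lowest for the WT pair of population A. Whether replicate arrays stand for different mice is not stated in the labels, so the p-values cover only the spread between these arrays, which may be technical. Macrophage markers, 7 genes, were all above the 40th percentile on every array, with mean log2 signals of 11.12 to 12.30 in bead-enriched cells, and CD11b is also carried by neutrophils and monocytes, which the beads do not separate. Myd88, as a check of the labels, read 7.47 to 7.83 in Myd88-/- hosts and 8.11 to 8.57 in WT hosts, which makes -0.75 ± 0.10 (limma adjusted p = 0.00174, n = 5 each). In the sorted cells it read 7.49 to 8.76 in the 8 arrays with deleted Myd88 and 9.22 to 10.05 in the other 8. Against WT it was called lower in both Myd88-deleted genotypes of A and in Myd88 cKO of C. In double KO of C the difference of -1.14 ± 0.27 was not called (limma adjusted p = 0.129, n = 2 each). Tnfrsf1a, which encodes TNFR1, passed the test in no sorted comparison, and the position of its probe set relative to the deleted part is not stated.

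In CD11b-enriched cells of neuroblastomas and EG7 tumours, none of the 10 genes was called, against 14.7% of the 12576 genes tested. S100a8 and S100a9 were high on every array. S100a8 read 13.01, 11.98 and 11.22 in neuroblastoma, against 12.84, 12.08 and 12.57 in EG7. S100a9 read 13.14, 12.60 and 11.97 in neuroblastoma, against 13, 12.12 and 12.89 in EG7. The models overlapped for both genes, with differences of -0.43 ± 0.45 and -0.10 ± 0.36 (limma adjusted p = 0.584 and 0.884).

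Ngp, Camp and Ltf differed more between arrays of 1 model than between the models. Ngp, which encodes a cathelicidin-related granule protein, read 10.34, 8.79 and 7.89 in neuroblastoma, against 11.62, 4.32 and 7.99 in EG7. Camp read 8.02, 6.84 and 6.04 in neuroblastoma, against 10.11, 4.24 and 6.14 in EG7. Ltf read 7.76, 6.93 and 5.81 in neuroblastoma, against 9.64, 4.47 and 6.13 in EG7. The 6 arrays stood in the same order for all 3 genes, with EG7 array 1 highest, neuroblastoma array 1 next and EG7 array 2 lowest. Ngp alone spanned 7.3 log2 units, and its difference between models, 1.03 ± 1.73, was smaller than its own error. Mmp8, a collagenase, read 9.43, 7.89 and 5.53 in neuroblastoma, against 7.96, 6.93 and 6.98 in EG7, and Pglyrp1 read 7.04, 6.78 and 5.91 in neuroblastoma, against 6.77, 5.51 and 5.95 in EG7. Both models overlapped for these 2 genes as well.

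**Figure D1:**
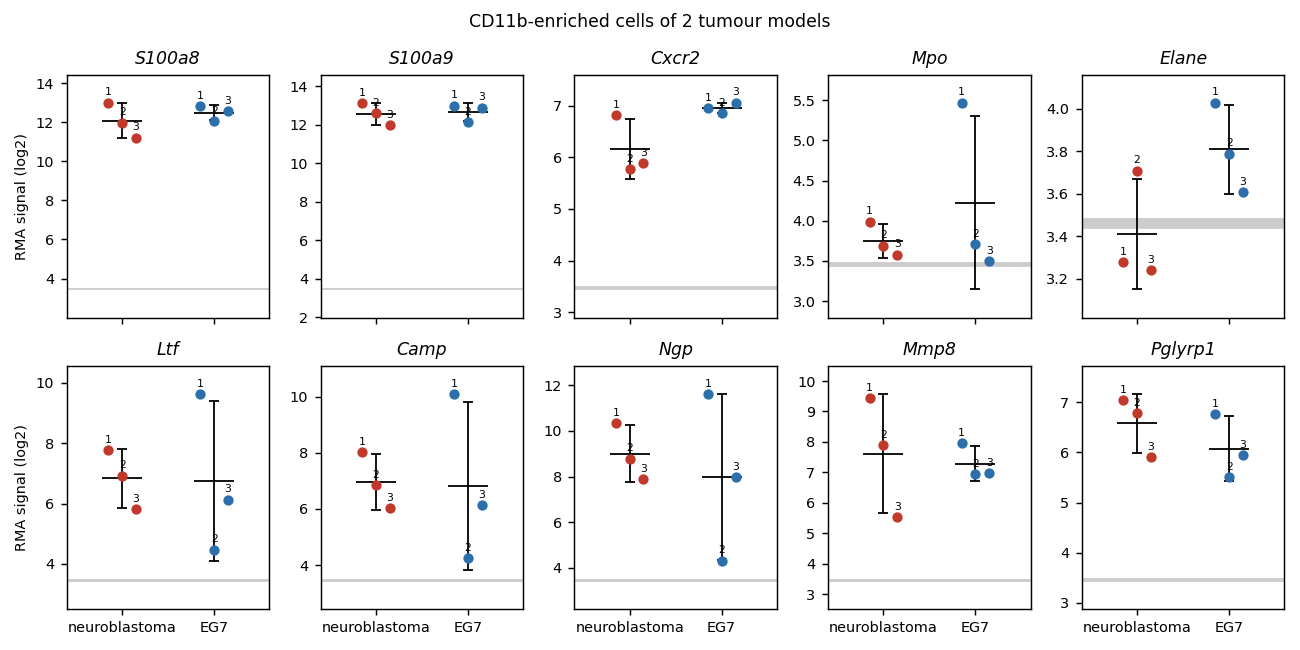
RMA signal (log2) of the 10 genes in CD11b-enriched cells of neuroblastoma and EG7 tumours. Points are arrays with their replicate numbers, bars are mean and SD (n = 3), the grey band spans the 40th percentiles of the arrays, and the vertical scale differs between panels. EG7 array 1 is highest for Ltf, Camp, Ngp and Mpo, and S100a8 stays between 11.22 and 13.01.

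The early genes lay close to the low end of the arrays. Mpo, the peroxidase of primary granules, read 3.99, 3.69 and 3.58 in neuroblastoma, against 5.47, 3.71 and 3.50 in EG7, so that only EG7 array 1 stood over 1 log2 unit above the 40th percentile. Elane, a serine protease, read 3.28, 3.71 and 3.24 in neuroblastoma, against 4.03, 3.79 and 3.61 in EG7, above the 40th percentile on 4 of 6 arrays. EG7 array 1 was also highest for Prtn3, the gene of the related protease 3, at 6.31, while the other EG7 arrays read 4.82 and 5.31. On that array Mpo, Prtn3, Ngp, Camp and Ltf were thus high together. Elane at 4.03 was close to the next array at 3.79. Mmp8 and Pglyrp1 were highest on neuroblastoma array 1, at 9.43 and 7.04.

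Cxcr2 was the 1 gene of the 10 whose arrays did not overlap between the models, a separation that 36.1% of all genes tested showed. It read 6.82, 5.77 and 5.89 in neuroblastoma, against 6.96, 6.85 and 7.06 in EG7. The difference of -0.80 ± 0.29 did not pass the test (limma adjusted p = 0.122). Without neuroblastoma array 1 it was -1.13 ± 0.16 (adjusted p = 0.0129), and with limma array weights -0.82 ± 0.24 (adjusted p = 0.0494), so that the call depended on these settings. Among 11 late granule genes on the chip, chosen with earlier results of these data known, 1 of 10 tested was lower in neuroblastoma: Mmp9, gelatinase B, at -2.43 ± 0.32 (adjusted p = 0.00487). None of 9 tested mature neutrophil genes and none of 3 early granule genes was called, and the medians of the 2 granule lists were -0.61 and -0.23, against -0.01 over all genes. The regulators Myb and Gfi1 were lower in neuroblastoma by the test, at -4.03 ± 0.20 and -2.88 ± 0.27, beside T lymphocyte genes, of which 7 of 7 were lower. These last also come from EG7 cells, and their part in the regulator values was not tested. In bulk samples such as these, fewer cells of a type and less RNA per cell cannot be told apart.

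In EG7 tumours of Myd88-/- and WT hosts, again none of the 10 genes was called, against 1.48% of 11916 genes tested. S100a8 and S100a9 varied little over the 10 arrays, within 0.57 and 0.41 log2 units. They lay at the very top of the arrays, at percentiles 99.4 to 99.7 and 99.8 to 99.9 of the probe sets. Whether the chip compresses differences at such signals was not tested. S100a8 read 12.05, 12.18, 11.83, 12.00 and 12.00 in Myd88-/- hosts, against 12.02, 12.11, 12.31, 12.12 and 11.74 in WT hosts. S100a9 read 12.59, 12.67, 12.53, 12.50 and 12.52 in Myd88-/- hosts, against 12.74, 12.81, 12.91, 12.78 and 12.51 in WT hosts. 4 of 5 WT arrays thus lay above all Myd88-/- arrays for S100a9, and the difference of -0.19 ± 0.09 did not pass the test over all genes (limma adjusted p = 0.393). Cxcr2 read 7.07 to 7.57 in Myd88-/- hosts with a median of 7.14, against 6.77 to 7.62 in WT hosts with a median of 7.23, a difference of -0.01 ± 0.14.

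The granule genes Ngp, Camp and Ltf again separated single arrays rather than host genotypes. Ngp read 8.98, 6.35, 4.93, 3.81 and 5.23 in Myd88-/- hosts, against 4.61, 9.53, 5.19, 4.08 and 4.36 in WT hosts. Camp read 7.29, 4.26, 2.95, 3.25 and 3.68 in Myd88-/- hosts, against 3.03, 7.81, 3.98, 2.86 and 3.14 in WT hosts. Ltf read 7.33, 5.43, 4.05, 4.43 and 4.86 in Myd88-/- hosts, against 4.55, 7.72, 5.19, 4.68 and 4.68 in WT hosts. Myd88-/- array 1 and WT array 2 stood above the other 8 for each of the 3 genes. Differences between hosts were 0.31 ± 1.06 for Ngp, 0.12 ± 0.96 for Camp and -0.14 ± 0.66 for Ltf (limma adjusted p of 0.948, 0.98 and 0.964). No difference was thus called for these 3 genes near Myd88 on chromosome 9, with errors too wide to show a moderate one. The part of their place in these values was not tested. Leaving out 1 array at a time moved the Camp difference between -0.63, without Myd88-/- array 1, and 1.03, without WT array 2.

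**Figure D2:**
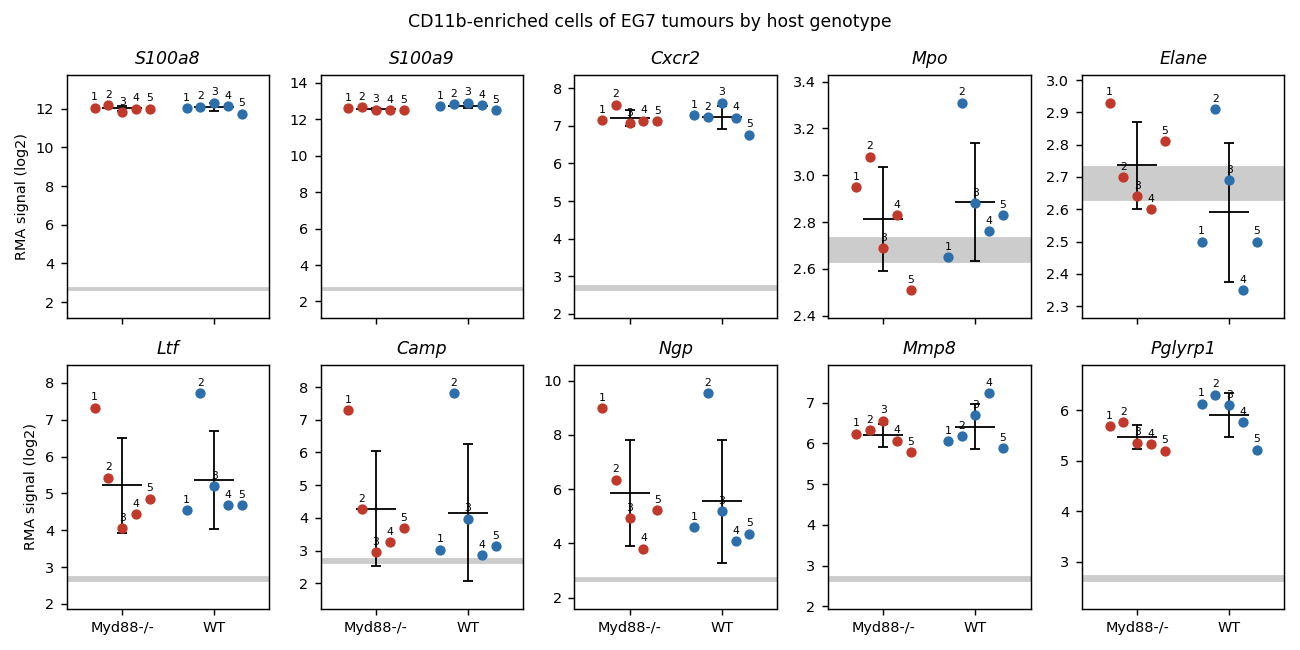
RMA signal (log2) of the 10 genes in CD11b-enriched cells of EG7 tumours in Myd88-/- and WT hosts. Points are arrays with their replicate numbers, bars are mean and SD (n = 5), the grey band spans the 40th percentiles of the arrays, and the vertical scale differs between panels. Myd88-/- array 1 and WT array 2 stand apart for Ltf, Camp and Ngp, while S100a8 and S100a9 stay within 0.57 and 0.41 log2 units.

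Over these 10 arrays the genes whose values followed Ngp most closely among 11916 were Camp (Pearson r = 0.977) and Ltf (r = 0.963), and next came Gm10037 (r = 0.912), Hyal3 (r = 0.898) and Myh10 (r = 0.878). Without the 2 arrays farthest from the median the correlations of Ngp with Camp and with Ltf were 0.81 and 0.67 over 8 arrays. S100a8 followed another order. The gene most like it was Cxcr2 (r = 0.918), then Derl1 (r = 0.909), Crhr1 (r = 0.905), 4921525D07Rik (r = 0.903) and Rras2 (r = 0.89). The arrays in these correlations share chip, tumour line and processing, and each r describes them without a test. WT array 2 also gave the highest WT values of Mpo (3.31) and Elane (2.91), and Myd88-/- array 1 the highest Elane value of its group (2.93), although both genes lay within 0.8 log2 units over all arrays. On the same arrays Csf3r, the receptor of granulocyte colony-stimulating factor, read 9.12 in Myd88-/- array 1 (range 8.87 to 9.42) and 9.63 in WT array 2 (range 9.27 to 9.81), so that neither array led its group. Over the 10 arrays Ngp correlated at 0.74 with the myeloid precursor gene Ms4a3, at 0.62 with Prtn3 and with Cd177, at 0.54 with the protease gene Ctsg, at 0.32 with Lcn2, at 0.24 with Csf3r and at 0.03 with the red cell transcript Hba-a1. Without the 2 farthest arrays these were 0.37 (Ms4a3), -0.20 (Prtn3), 0.11 (Cd177), -0.24 (Ctsg), -0.16 (Lcn2), 0.34 (Csf3r) and 0.31 (Hba-a1).

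Mmp8 and Pglyrp1 did not follow that pattern. Pglyrp1, whose product binds bacterial peptidoglycan, read 5.68, 5.77, 5.36, 5.33 and 5.20 in Myd88-/- hosts, against 6.13, 6.31, 6.10, 5.76 and 5.22 in WT hosts. The difference of -0.44 ± 0.19 did not pass the test (limma adjusted p = 0.361), and its closest member was S100a9 (r = 0.90, and 0.88 without the 2 farthest arrays). Mmp8 read 5.78 to 6.56 in Myd88-/- hosts with a median of 6.24, against 5.88 to 7.23 in WT hosts with a median of 6.18. Mpo read 2.51 to 3.08 with a median of 2.83 in Myd88-/- hosts, and 2.65 to 3.31 with the same median in WT hosts. Elane read 2.60 to 2.93 with a median of 2.70 in Myd88-/- hosts, and 2.35 to 2.91 with a median of 2.50 in WT hosts, above the 40th percentile on 5 of 10 arrays.

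Among other neutrophil genes, 3 of 9 tested mature neutrophil genes were lower in Myd88-/- hosts, with a list median of -0.54 against 0.01 over all genes. They were the receptor gene Mrgpra2b (-1.64 ± 0.20, adjusted p = 0.00114), G0s2, an inhibitor of fat breakdown (-1.11 ± 0.19), and the protease gene Asprv1 (-0.86 ± 0.19). 1 of 11 late granule genes was lower, haptoglobin (Hp, -0.47 ± 0.11, adjusted p = 0.0488), and neither of 2 early ones was called. Of 6 tested genes for CXCR2 ligands and neutrophil mobilisation, 2 were lower: Csf3, the cytokine that drives granulocyte output, at -2.88 ± 0.34 (adjusted p = 0.000887), and the CXCR2 ligand Cxcl5 at -1.01 ± 0.23. Csf3 read 4.25 to 5.52 in Myd88-/- hosts and 6.27 to 8.12 in WT hosts, while Cxcr2 itself and S100a8 overlapped between the same hosts. The monocyte markers were also lower in Myd88-/- hosts, 3 of 5, with mean log2 signals of 8.21 to 8.59 against 8.92 to 9.07 in WT hosts, and the part of cell mixture in these values was not tested.

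In the sorted cells most of the 10 genes sat near the low end of the arrays. Camp was above the 40th percentile on none of 16 arrays, at 3.23 to 4.64 in population A and 3.26 to 3.82 in population C, and was not tested. S100a8 was above it on 5 of 16 arrays, at 4.24 to 5.71 in A and 4.30 to 5.16 in C. The corresponding counts were 5 for Ngp, 6 for Elane, 8 for Ltf and 12 for Mpo, and all 16 for S100a9, Mmp8, Pglyrp1 and Cxcr2. Population A was gated Ly6G-, and Ly6g, the gene of that neutrophil antigen, read 5.06 to 6.88 in A and 4.33 to 5.49 in C. The gate was reflected in Ly6c2, at 11.31 to 12.93 in A and 7.88 to 9.99 in C, and in H2-Aa, at 8.77 to 11.61 in A and 11.94 to 12.37 in C.

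**Figure D3:**
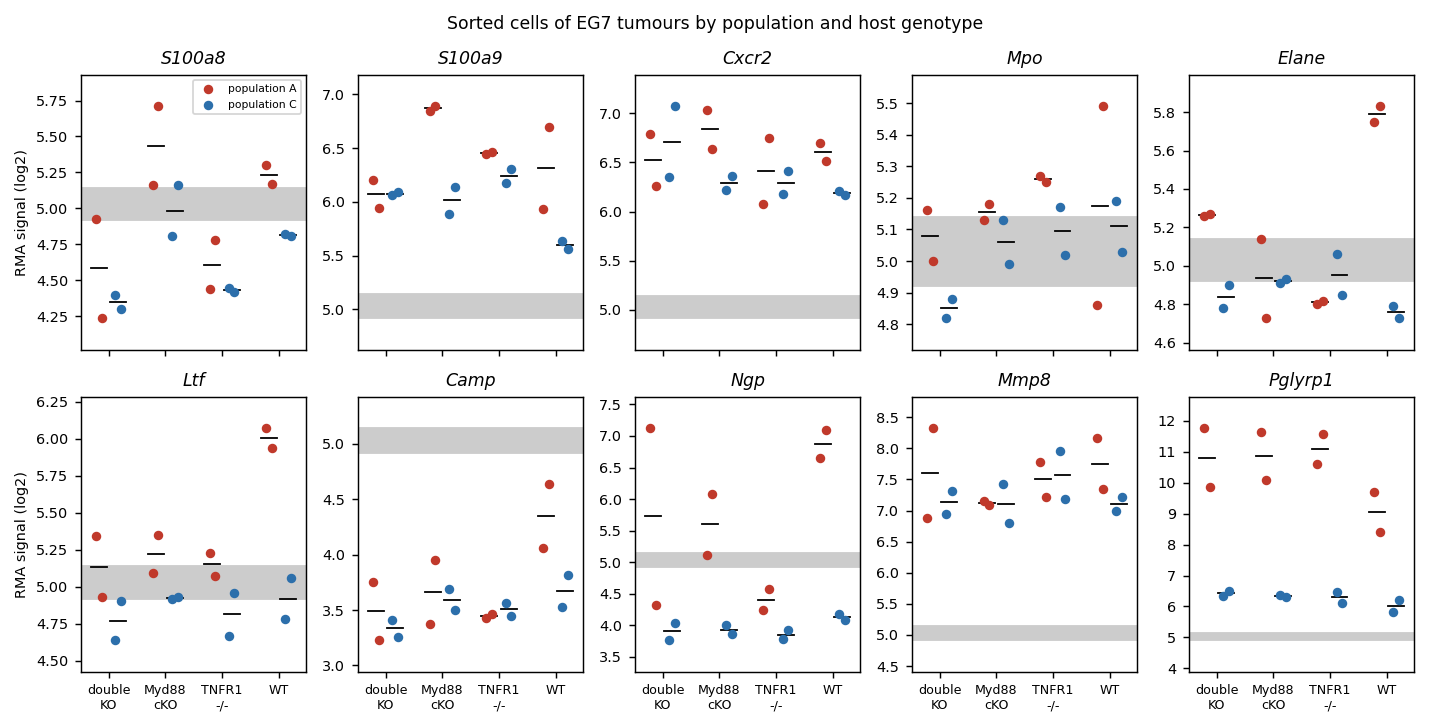
RMA signal (log2) of the 10 genes in sorted cells of EG7 tumours, by host genotype and population. Points are arrays, lines are means of 2 arrays, the grey band spans the 40th percentiles of the arrays, and the vertical scale differs between panels. Pglyrp1 lies at 8.39 to 11.75 in all A arrays and at 5.82 to 6.51 in all C arrays, and Camp lies below the band throughout.

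Over the 4 genotypes, 6 of the 9 genes tested were called and all 6 were higher in A, against 32.3% of 16524 genes called in either direction. Of all 5344 called genes 1827 were higher in A, and 1030 of 5341 were with arrays centred on their medians, a scaling under which the 6 members except S100a8 kept their calls. Ngp passed the filter only through arrays of A, and S100a8, Elane and Ltf passed it mainly through A (4, 5 and 7 arrays, with 1 array of C each), so that a difference in that direction was built into their testing and the count is not support in itself. Pglyrp1 had by far the widest gap. It read 11.75 and 9.85 (double KO), 11.64 and 10.08 (Myd88 cKO), 10.61 and 11.57 (TNFR1-/-) and 9.70 and 8.39 (WT) in A. In C it read 6.34 and 6.51, 6.38 and 6.31, 6.47 and 6.12, and 5.82 and 6.21 for the same genotypes. All arrays of A lay above all arrays of C. The difference of 4.18 ± 0.29 (limma adjusted p = 3.84e-07, n = 8 each) ranged from 3.94 to 4.56 over 25 other settings.

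Pglyrp1 moved with genes of eosinophils across the arrays of A. Siglecf, a lectin that marks eosinophils, read 10.26 and 8.55 (double KO), 10.01 and 8.85 (Myd88 cKO), 9.04 and 10.09 (TNFR1-/-) and 8.20 and 7.0 (WT) in A, against 5.01 to 6.24 in C. Over the 8 arrays of A, Pglyrp1 and Siglecf correlated at r = 0.99 (Spearman 0.98, and r = 0.99 without the 2 farthest arrays). The correlation of Pglyrp1 was 0.94 with Ccr3, the eotaxin receptor, 0.95 with Cebpe, the C/EBP factor of late granule formation, 0.89 with the eosinophil granule gene Prg2, 0.72 with Ly6g, 0.51 with the eosinophil peroxidase gene Epx and -0.04 with Cpa3, a mast cell protease gene. Without the 2 farthest arrays the correlation with Cpa3 was -0.80. Of 6 eosinophil and mast cell markers on the chip, 5 were tested and 5 were higher in A: Ccr3 (4.19 ± 0.21), Siglecf (3.24 ± 0.28), Prg2 (1.27 ± 0.26), Cpa3 (0.76 ± 0.14) and Epx (0.56 ± 0.11). Their mean log2 signal was 5.77 to 7.59 in A and 4.93 to 5.22 in C, and 5 of the 6 were above the 40th percentile on every array of A, against 4 or 5 on the arrays of C. The part of these cells in the Pglyrp1 values was not tested.

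The other late granule genes differed less between the populations. Ngp read 7.12 and 4.33 (double KO), 5.12 and 6.08 (Myd88 cKO), 4.24 and 4.58 (TNFR1-/-) and 6.65 and 7.09 (WT) in A, against 3.77 to 4.18 in C, where no array reached the 40th percentile. Its difference was 1.70 ± 0.29 (n = 8 each, limma adjusted p = 0.00053). Unlike Pglyrp1, Ngp correlated at -0.32 with Siglecf over the A arrays. Ltf, the iron-binding lactoferrin, read 4.93 to 6.07 in A with 6.07 and 5.94 in WT hosts, and 4.64 to 5.06 in C, a difference of 0.52 ± 0.09 (adjusted p = 0.000555). Mmp8 read 6.88 to 8.32 in A and 6.80 to 7.95 in C and did not pass the test (0.27 ± 0.20, adjusted p = 0.338).

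S100a9 was the member of the calprotectin pair that was clearly measured, at 5.93 to 6.89 in A and 5.56 to 6.31 in C. The difference was 0.44 ± 0.10 (limma adjusted p = 0.00404, n = 8 each), higher in A, although the populations overlapped. S100a8 was called at 0.32 ± 0.11 (adjusted p = 0.0445), a call that was lost in 17 of 24 other settings, among them no filter on low values (adjusted p = 0.0505). Elane was higher in A by 0.33 ± 0.08 (adjusted p = 0.00396). Over the 3 knockout genotypes alone the Elane difference was 0.10 ± 0.09 (adjusted p = 0.459), so the call rested on the WT hosts. Mpo (0.14 ± 0.09) and Cxcr2 (0.22 ± 0.13) did not pass the test, and Cxcr2 read 6.08 to 7.03 in A and 6.17 to 7.07 in C.

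In WT hosts alone 5 of 9 tested genes were higher in A, against 13.5% of all genes called. The filter was the same, passed by Ngp only and by Elane and Ltf mainly through arrays of A. This count is therefore not support in itself. The differences were 3.03 ± 0.58 for Pglyrp1, 2.74 ± 0.58 for Ngp, 1.08 ± 0.18 for Ltf, 1.03 ± 0.15 for Elane and 0.72 ± 0.20 for S100a9 (n = 2 each, limma adjusted p from 0.00111 to 0.0336). Without WT array 1 of population C the first 2 and S100a9 were no longer called (adjusted p = 0.0692, 0.0771 and 0.15). S100a9 also lost its call without WT array 2 of population C (adjusted p = 0.107) and without WT array 2 of population A, where the difference was 0.33 (adjusted p = 0.206). Ltf and Elane kept their calls in all alternatives in which they were tested.

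**Figure D4:**
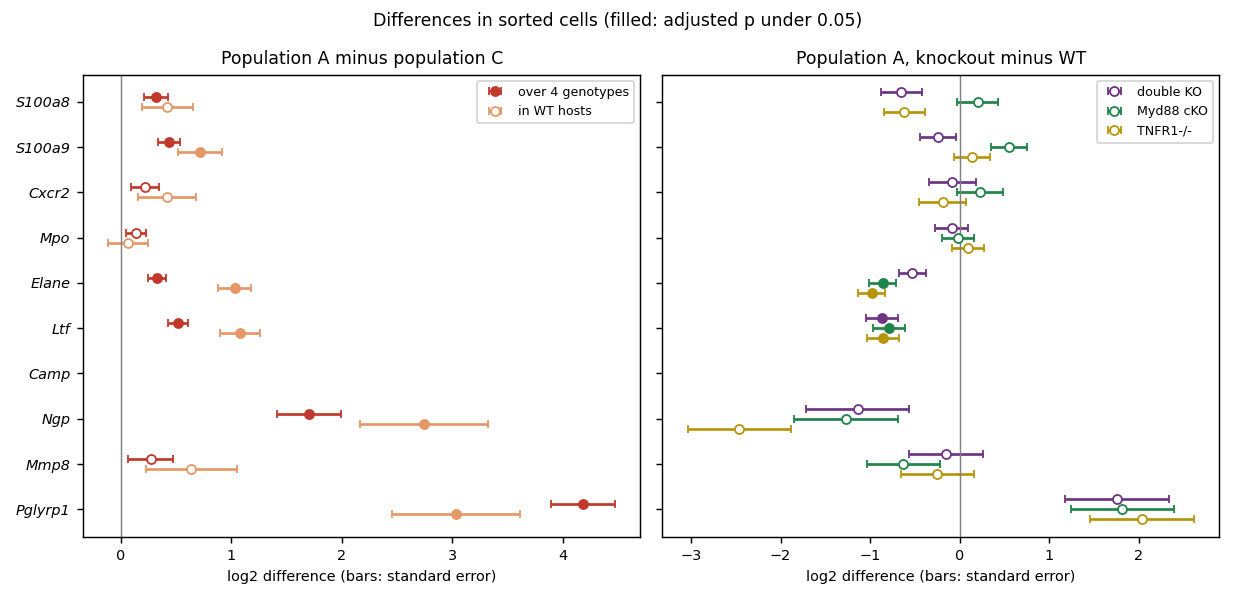
Log2 differences of the 10 genes in sorted cells, with standard errors. The left panel gives population A minus population C over 4 genotypes (n = 8 each) and in WT hosts (n = 2 each), and the right panel gives each knockout genotype minus WT in population A (n = 2 each). Filled points passed the test and Camp was not tested. Pglyrp1 differs by 4.18 between the populations, and Ltf lies at -0.87 to -0.79 in all 3 knockout genotypes.

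Other neutrophil genes also differed between the populations, in a comparison that called 32.3% of all 16524 genes tested. The counts of called genes in each list are to be read beside that share. Of 12 tested late granule genes besides the 10, 6 were higher and 3 lower in A (list median 0.22, against 0.01 over all genes). Among them lipocalin 2 (Lcn2), Cd177 and Mmp9 were higher by 1.29 ± 0.10, 1.13 ± 0.13 and 1.72 ± 0.26, and the annexin Anxa3 was lower at -1.94 ± 0.15. 5 of 13 mature neutrophil genes were higher and none lower, led by the resistin-like gene Retnlg at 5.65 ± 0.17, with Padi4, the citrullinating enzyme of neutrophil chromatin, at 1.93 ± 0.23, G0s2 at 1.43 ± 0.19 and Ly6g at 1.16 ± 0.22. Retnlg correlated with Pglyrp1 at 0.89 over the A arrays. 1 of 4 early granule genes was higher (Prss57, 0.22 ± 0.08) and 1 lower (Ctsc, which activates granule proteases, -0.90 ± 0.18). Among 10 regulators of granulocyte formation, 3 were higher and 3 lower in A (list median -0.10). Of those with the smallest adjusted p, Cebpe was higher at 1.74 ± 0.20, while Cebpa, Klf4 and Irf8 were lower at -1.78 ± 0.16, -1.15 ± 0.16 and -0.90 ± 0.16. Of 7 genes for CXCR2 ligands and neutrophil mobilisation, 2 were higher and 4 lower in A, the lower ones being Cxcl1 (-1.91 ± 0.12), Ppbp (-2.11 ± 0.19), Cxcl3 (-0.64 ± 0.11) and Cxcl2 (-0.57 ± 0.10). In the list of other S100 genes and S100 receptors, S100a11 was higher at 0.55 ± 0.13, and S100a1, S100a4 and the calprotectin receptor gene Tlr4 were lower at -0.80 ± 0.09, -0.48 ± 0.17 and -0.84 ± 0.11, 1 and 3 of 8 tested. Macrophage markers, of which 6 of 7 were lower in A, had mean log2 signals of 7.27 to 9.56 in A and 9.79 to 10.17 in C. Markers of several other cell types were higher in A, with none lower: 5 of 5 for fibroblasts (means 6.02 to 7.55 in A and 5.71 to 6.10 in C), 4 of 7 for T lymphocytes and the EG7 line (6.03 to 7.72 in A and 6.19 to 6.91 in C) and 3 of 5 for endothelium (5.72 to 6.86 in A and 5.50 to 5.80 in C). The same held for 1 of 3 natural killer cell markers and 1 of 3 neuroblastoma and neuron markers. Of 6 monocyte markers 2 were higher and 1 lower in A, with means of 8.42 to 9.65 in A and 7.63 to 9.06 in C. Lower in A were 1 of 4 dendritic cell markers and 1 of 2 B lymphocyte markers, with none higher. The part of these cells in the granule gene values was not tested.

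**Figure D5:**
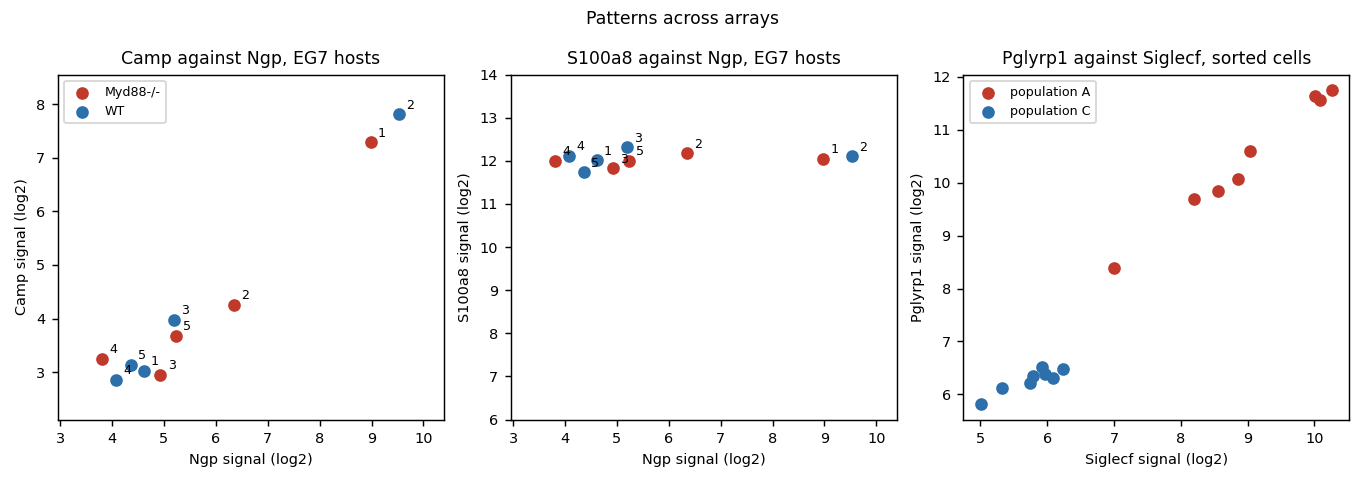
Signals (log2) of gene pairs across arrays. The left and middle panels set Camp and S100a8 against Ngp in CD11b-enriched cells of EG7 tumours (5 Myd88-/- and 5 WT arrays, with replicate numbers), and the right panel sets Pglyrp1 against Siglecf in sorted cells (8 arrays of A and 8 of C). Camp follows Ngp (r = 0.977), and Pglyrp1 follows Siglecf in A (r = 0.99). S100a8 stays between 11.74 and 12.31 at every Ngp level, at percentiles 99.4 to 99.7 of its arrays.

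Within population A, Elane and Ltf were lower in knockout hosts than in WT hosts. Elane read 5.26 and 5.27 (double KO), 5.14 and 4.73 (Myd88 cKO) and 4.80 and 4.82 (TNFR1-/-), against 5.75 and 5.83 (WT). The difference was -0.53 ± 0.15 in double KO (n = 2 each, limma adjusted p = 0.0556, not called), -0.86 ± 0.15 in Myd88 cKO (adjusted p = 0.0131) and -0.98 ± 0.15 in TNFR1-/- (adjusted p = 0.0206). Ltf read 5.34 and 4.93 (double KO), 5.09 and 5.35 (Myd88 cKO) and 5.23 and 5.07 (TNFR1-/-), against 6.07 and 5.94 (WT). It was lower by the test in all 3 genotypes, at -0.87 ± 0.18 (adjusted p = 0.0221), -0.79 ± 0.18 (adjusted p = 0.0359) and -0.86 ± 0.18 (adjusted p = 0.0497). In double KO this was 1 of 9 tested genes, against 5.75% of all genes. Myd88 cKO had 2 of 9 against 3.18%, and TNFR1-/- had 2 of 9 against 0.654%. Elane was above the 40th percentile on both arrays of WT and of double KO, on 1 of Myd88 cKO and on none of TNFR1-/-. Its lower values in the last 2 genotypes thus lay near or below that level, and these counts are not support in themselves. The 3 comparisons share the same 2 WT arrays, which had the highest 40th percentiles of the sorted arrays (5.08 and 5.14) and the lowest correlation with each other.

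The calls depended on single arrays and on the pooled spread. With only the 4 arrays of the 2 groups in the fit, none of the 5 was called (adjusted p from 0.247 to 0.379), and the same held with limma array weights (adjusted p from 0.227 to 0.477). In TNFR1-/- both calls were lost without WT array 1 (adjusted p = 0.0574 for Elane and 0.0833 for Ltf) or without TNFR1-/- array 2 (0.306 and 0.459). In Myd88 cKO the Ltf call was lost without WT array 1 (0.0543) or Myd88 cKO array 1 (0.181), and both calls were lost without Myd88 cKO array 2 (0.121 for Elane and 0.108 for Ltf). In double KO the Ltf call was lost without double KO array 1 (0.0943) or array 2 (0.0759). Fibroblast markers had mean log2 signals of 7.15 to 7.55 (double KO), 6.98 to 7.12 (Myd88 cKO) and 6.02 to 6.14 (TNFR1-/-), against 6.77 to 7.39 (WT), and 4 of 5 were lower by the test in TNFR1-/- alone of these comparisons. Markers of T lymphocytes and the EG7 line had means of 7.60 to 7.72 (double KO, 4 of 7 higher), 6.51 to 6.98 (Myd88 cKO, none called) and 6.03 to 6.06 (TNFR1-/-, 2 of 7 lower), against 6.70 to 6.83 (WT). The part of these cells in the Elane and Ltf values was not tested.

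Ngp and Pglyrp1 had differences of opposite sign in knockout hosts, and neither was called. In TNFR1-/- Ngp differed by -2.46 ± 0.58 (n = 2 each, limma adjusted p = 0.0613) and Pglyrp1 by 2.04 ± 0.58 (adjusted p = 0.0889). The Ngp difference was -1.27 ± 0.58 in Myd88 cKO and -1.14 ± 0.58 in double KO, where the arrays read 7.12 and 4.33. Without the array at 7.12 it was -2.54 ± 0.31 (adjusted p = 0.0218). The Pglyrp1 difference was 1.82 ± 0.58 in Myd88 cKO and 1.76 ± 0.58 in double KO. Without WT array 1 it was 2.47 ± 0.66 and 2.41 ± 0.66 in the 2 genotypes (adjusted p = 0.0379 and 0.0321), and without double KO array 2 it was 2.71 ± 0.57 in double KO (adjusted p = 0.0144). Of 5 eosinophil and mast cell markers tested, 1 was higher by the test in each of these genotypes and 4 were not called. It was Ccr3, at 2.27 ± 0.42 (double KO), 2.19 ± 0.42 (Myd88 cKO) and 2.73 ± 0.42 (TNFR1-/-). S100a9 differed by 0.55 ± 0.20 in Myd88 cKO (adjusted p = 0.14) and -0.24 ± 0.20 in double KO (adjusted p = 0.486). Without WT array 2, which read 6.70 beside 5.93, the first was 0.94 ± 0.17 (adjusted p = 0.00927), and without WT array 1 the second was -0.63 ± 0.17 (adjusted p = 0.028). Mpo, Mmp8 and Cxcr2 differed by -0.63 to 0.23 and were not called.

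Macrophage markers rose in A of Myd88 cKO hosts, 5 of 7 by the test, with mean log2 signals of 8.19 to 8.38 (double KO), 9.10 to 9.56 (Myd88 cKO) and 7.27 to 7.95 (TNFR1-/-), against 7.31 to 7.77 (WT), and their part in the values of the granule genes was not tested. Among 12 other late granule genes tested in A, 0 were higher and 2 lower in double KO, 2 higher and 1 lower in Myd88 cKO, and 0 higher and 1 lower in TNFR1-/-, with medians of -0.26, 0.13 and -0.49 against -0.01, 0.00 and -0.04 over all genes. The ficolin gene Fcnb fell by 0.71 ± 0.13 in double KO and by 0.60 ± 0.13 in Myd88 cKO, and Lcn2 fell by 0.77 ± 0.21 in double KO and by 1.28 ± 0.21 in TNFR1-/-. Anxa3 and Chil3, Chil3 being a chitinase-like gene also made by macrophages, were higher in Myd88 cKO by 1.35 ± 0.30 and 1.96 ± 0.50. Of 13 mature neutrophil genes, Retnlg was higher in double KO (1.58 ± 0.35) and TNFR1-/- (1.79 ± 0.35), the interleukin-1 decoy receptor gene Il1r2 (2.46 ± 0.54) and Stfa2l1 (1.16 ± 0.26) were higher in Myd88 cKO, and Cxcr1 (-0.95 ± 0.24, double KO) and Fpr2 (-1.95 ± 0.37, TNFR1-/-) were lower. None of 4 early granule genes tested was called in the 3 genotypes.

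Averaged over the state of the other gene, neither loss gave a called member in A (4.67% of all genes called for Myd88 loss and 0.182% for TNFR1 loss) or in C (0.0182% and 1.09%). Of the 10 genes only S100a8 had arrays that separated by TNFR1, in A and in C. Of all genes tested, 2.52% separated in A, 6.38% in C and 0.266% in both with the same sign. In A it read 4.93, 4.24, 4.44 and 4.78 in hosts without TNFR1 (double KO first), against 5.16, 5.71, 5.30 and 5.17 in hosts with it (Myd88 cKO first). In C it read 4.40, 4.30, 4.45 and 4.42 without TNFR1, against 4.81, 5.16, 4.82 and 4.81 with it. The groups did not overlap in either population, and the differences of -0.74 ± 0.16 and -0.51 ± 0.16 did not pass the test (n = 4 each, limma adjusted p = 0.0891 and 0.262). Without WT array 2 of A the first was -0.77 ± 0.18. S100a8 passed the filter only through arrays of hosts with TNFR1: 2 WT and 2 Myd88 cKO arrays of A, and 1 Myd88 cKO array of C. A lower value without TNFR1 was thus built into its testing, and the separation is not support in itself. All 8 arrays without TNFR1 lay below the 40th percentile, so these values sit where the chip resolves little. S100a9, its partner, read 5.94 to 6.46 without TNFR1 and 5.93 to 6.89 with it in A, and 6.06 to 6.31 without TNFR1 and 5.56 to 6.14 with it in C. Its differences had opposite signs, -0.33 ± 0.14 in A and 0.35 ± 0.14 in C. The gap between them of -0.68 ± 0.20, a contrast added after the values were seen, was not called (adjusted p = 0.447, against 0.103% of all genes), and without WT array 1 of A it was -0.87 ± 0.14 (adjusted p = 0.036). For Ngp, leaving out the double KO array at 7.12 gave -1.86 ± 0.20 for TNFR1 loss in A (adjusted p = 0.00173) and -1.72 ± 0.27 for its gap to C (adjusted p = 0.03). For Pglyrp1, TNFR1 loss in A gave 1.47 ± 0.36 without double KO array 2 (adjusted p = 0.048), against 0.99 ± 0.41 with all arrays (adjusted p = 0.302).

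Within population C no member was called in double KO, Myd88 cKO or TNFR1-/- against WT (0.309%, 0.0121% and 0.0726% of all genes). Pglyrp1 stayed within 0.69 log2 units over the 8 arrays of C, Ngp within 0.41 and Ltf within 0.42. S100a9 read 6.06 and 6.09 (double KO), 5.89 and 6.14 (Myd88 cKO) and 6.18 and 6.31 (TNFR1-/-), against 5.64 and 5.56 (WT). The differences were 0.48 ± 0.20, 0.42 ± 0.20 and 0.64 ± 0.20, with limma adjusted p of 0.738, 0.999 and 0.655. Setting the genotype effects in A against those in C gave no called member either (0.0363% of all genes for double KO, and 0.0% for Myd88 cKO and for TNFR1-/-). The largest of these gaps for the early genes, -1.18 ± 0.21 for Elane in TNFR1-/-, had an adjusted p of 0.176. Without WT array 2 of A it was -1.14 ± 0.23 (adjusted p = 0.0306). An effect called in A and not in C was therefore not shown to differ between the populations.

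Over the 16 sorted arrays the 5 genes most like S100a8, Ngp, Mpo and Cxcr2 held none of the 10. Ngp was followed most closely by Celsr3 (r = 0.911), Lbp (r = 0.909), Dnah8 (r = 0.894), the collagen gene Col6a2 (r = 0.879) and Phex (r = 0.877). Cxcr2 was followed by Rps15a-ps6 (r = 0.88), Tas2r144, Tdrd9, Npc1l1 and A730063M14Rik, with r of 0.749 to 0.792 for these 4. The closest genes to S100a8 were Shank2 (r = 0.849), Uhrf1bp1, Wdr63, Stk36 and Ucn, and those to Mpo were Mir3471-1 (r = 0.862), Olfr411, Snai3, 4930571B16Rik and Kif7. Of these, Shank2 spanned only 5.24 to 5.51 over all arrays, and both S100a8 and Mpo read close to the 40th percentile. In the Myd88 experiment Mpo was followed by Hyal3 (r = 0.886), Gnmt, Scrn2, Cpne5 and Ecel1, and Cxcr2 by Bbox1 (r = 0.956), S100a8 (r = 0.918), Wwp2, Upp1 and Cdk2ap2.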

How the data were processed

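Values deposited by the authors are on the log2 scale, 1 signal for every probe set. Per the submitters' processing notes, they come from RMA as run by Expression Console 1.1, and per the labels 100 ng of RNA went on each array. RMA forces arrays processed together to 1 distribution, and the sources used here do not say which arrays these were. The 3 experiments were therefore analysed apart. A gene's value is that of its probe set with the highest mean among those with 1 symbol, and it was tested where it exceeded the 40th percentile of an array's probe sets in as many arrays as the smallest group (2, 3 or 5). Two-sided tests came from limma 3.58.1 (lmFit, eBayes; R 4.3.3), and p-values were adjusted by Benjamini-Hochberg over every gene tested. Bead-enriched fits held 2 groups, and 1 fit took in all sorted arrays, with 8 groups and 8 residual degrees of freedom. Fits of the bead-enriched comparisons and of A against C in WT hosts were run on simulated data. Changes were simulated only in genes of higher mean signal, so these runs say little about members near the low end of the arrays. Arrays carry no depth, and their number limits the precision. Alternatives were other filters, probe set rules, centring or quantile normalization, variance models, array weights, smaller fits, the replicate number as a block, and each array left out in turn.

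The 10 genes are always named. Where a list is described, up to 4 called genes of smallest adjusted p are named, with others named only because they move with a member, and for S100a8, Ngp, Mpo and Cxcr2 the 5 genes of most like pattern are named. The genes, lists and patterns were chosen with earlier results of these data known.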

Additional observations from a re-analysis of the deposited data

Results flagged for a closer look

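Among 20 sets of 5 arrays (10 genes in each host genotype of the Myd88 experiment), 4 held an array whose gap to its nearest neighbour was a larger part of the group's range than Dixon's 95% critical value of 0.71, and chance alone gives about 1 in 20. Ngp in WT hosts reached 9.53, where the next array read 5.19 (ratio 0.796). Camp in WT hosts reached 7.81, where the next read 3.98 (ratio 0.774), and Ltf in WT hosts reached 7.72, where the next read 5.19 (ratio 0.798). These 3 values came from 1 array, WT array 2, and so are not independent. Cxcr2 in Myd88-/- hosts reached 7.57 on array 2, where the next read 7.15 (ratio 0.84).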

How the results depend on the processing

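No called difference changed sign. In Myd88-/- against WT hosts no member was called, but the exact permutation test per member, unadjusted, gave p under 0.05 for 1 gene (S100a9, p = 0.0476, smallest possible 0.00794). In neuroblastoma against EG7 array weights gave 1 call. For A against C in WT hosts array weights gave 2 calls in place of 5. In A against WT, array weights and a fit of only the 2 groups gave 0 calls in each of the 3 knockout genotypes. For TNFR1-/- in A, centring arrays on their medians, the 60th percentile, no filter on low values, the mean of all probe sets and the replicate block each gave 1 call in place of 2, for Myd88 cKO the 60th percentile gave 1, and for double KO no filter gave 2, with Camp at -0.86 (adjusted p = 0.0495).

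Leaving out 1 array at a time gave 0 to 1 calls between tumour models, 5 to 6 for A against C, 2 to 5 for A against C in WT hosts, and 0 to 2 (TNFR1-/-), 0 to 3 (Myd88 cKO) and 1 to 3 (double KO) within A. It gave 0 to 1 for TNFR1 loss in A, for the gap between A and C of the TNFR1-/- effect and for that of TNFR1 loss, and 0 in the other comparisons. Same-numbered arrays deviated together at correlations of -0.25 to 0.26, with A against C checked in WT hosts only (0.24). The labels do not tie the numbers to animals, so the main tests carry no block. The replicate block shares 1 effect of the number over all sorted arrays. Pairs of A and C within a genotype were thus not modelled. With the replicate block S100a8 in A against C had an adjusted p of 0.0525 and Ltf in TNFR1-/- of A 0.0586, and no other call of a member changed. After another quantile normalization, an alternative chosen after seeing the data, Ngp in TNFR1-/- of A was called at -2.65 ± 0.59. Counts over all genes moved as well: leaving out 1 array gave 2 to 1754 calls for TNFR1-/- in A (108 with all), 8 to 1516 for Myd88 cKO (525), 2 to 2341 for double KO (950), 409 to 3422 for A against C in WT hosts (2223), 86 to 276 for Myd88-/- hosts (176) and 663 to 2509 between tumour models (1850). The other settings gave 1 to 413 (TNFR1-/-), 9 to 566 (Myd88 cKO), 0 to 1109 (double KO), 301 to 2366 (A against C in WT hosts) and 135 to 301 (Myd88-/- hosts). Across all settings Myd88 loss in A gave 153 to 2359 calls (772 in the main setting) and TNFR1 loss 3 to 700 (30), while in C they gave 0 to 18 (3) and 72 to 353 (180). In C against WT the counts ran from 2 to 66 (12, TNFR1-/-), 0 to 45 (2, Myd88 cKO) and 7 to 135 (51, double KO), and the gaps between A and C gave 0 to 297 (0), 0 to 36 (0) and 2 to 98 (6) for the same order, with 8 to 52 (17) for TNFR1 loss. Centring on medians moved the higher calls to 280 of 2366, against 583 of 2223, for A and C in WT hosts, to 504 of 566, against 408 of 525, for Myd88 cKO in A, and to 1008 of 1109, against 715 of 950, for double KO in A. The causes were not tested.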
